A study of Mus musculus with 38 samples.

Results

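The genes described here encode voltage-gated and related ion channels of the mouse. They were taken from the GENCODE vM1 annotation of the mm9 genome (NCBIM37) by symbol alone, as protein-coding genes that begin with Kcn, Cacn or Hcn, or with Scn and a digit. The rule found 138 genes among 22225 protein-coding genes. Of these, 101 encode subunits that form the pore and 37 encode auxiliary subunits. Each gene was examined over its body and 20 kb on each side, called its window here. Windows of neighbours were merged into 127 separate stretches, which covered 21.5 Mb of the 1405 Mb in the windows of all protein-coding genes. Kcnb2, Kcnh8 and Scn8a are annotated as 2 records each, which were joined.

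The study mapped where SATB1, a nuclear protein that binds AT-rich DNA, sits on chromatin. It compared standard ChIP-seq with urea ChIP-seq, where chromatin is first spun through urea, which removes proteins that are not crosslinked to DNA. A reference map of base-unpairing regions (BURs), 1 list, came from thymus DNA fragments that recombinant SATB1 bound in vitro. All other lists came from wild-type C57BL/6 mice and held SATB1 urea ChIP-seq of brain, thymus and skin with 2 lists each, SATB1 standard ChIP-seq of thymus with 2, and CTCF urea ChIP-seq of thymus and of skin with 1 each.

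Urea SATB1 lists were made with the rabbit antibody 1583D and CTCF lists with an Active Motif antibody. The methods describe frontal cortex, thymocytes and epidermal keratinocytes, so that brain, thymocyte and skin below name those preparations. Within a group the lists differed in preparation. The titles of the brain lists share a preparation code and give 10 and 12 PCR cycles, the thymocyte urea lists 4 and 2 µl of antibody, and the skin lists 55 and 60 s of sonication. The ages conflict between the labels and the protocols. For brain the age labels give 5 and 6 weeks and the protocol postnatal day 13, for skin the labels give day 13 and the protocol day 5, while the methods give adult mice for brain and newborn mice for skin. For thymus the labels and the protocol give day 13, although the titles of the CTCF list and of standard list 1 give 6 weeks. Standard list 1 was made with the Abcam antibody ab109122 and 15 s of sonication and standard list 2 with 1583D and 150 s, so antibody and sonication cannot be told apart there. The study's checklist calls its replicates cells from different animals, but the labels name no animal for any list and the brain titles share a code. In the thymocyte urea pair and in the skin pair the title codes differ only in a last letter. The codes of the standard pair differ. A p-value below therefore measures only the spread between these lists, which may be technical.

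Ion channels let sodium, calcium or potassium cross the membrane and so set how a cell fires and responds. Scn and Cacna1 genes encode the large pore subunits of voltage-gated sodium and calcium channels, Kcn genes encode the pores of the potassium channel families, and Hcn genes encode the pacemaker channels. Scn beta, Cacna2d, Cacnb, Cacng, Kcnab, Kcne, Kcnip and Kcnmb genes encode partners that change how pores are placed or gated. Most are known for their roles in neurons and muscle, while Kcna3 and Kcnn4 carry the main potassium currents of T cells. A BUR is a stretch of DNA with runs in which one strand holds A, T and C but no G, and its strands part readily under strain.

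The sequences below are BURs within channel genes that were bound by SATB1 in brain, shown so that the kind of DNA behind the counts can be seen. They lie in Kcnip4 and Kcnh7, which are among the 5 channel genes with the most brain SATB1 peaks. Each is the BUR of the gene body with the highest mean brain fold enrichment among those with a peak in both brain lists. The 300 bases around the summit of the BUR are given on the plus strand of NCBIM37, and capitals mark the longest run that lacks C on that strand. Both lie in introns. The window of Kcnip4 is chr5:49547084-49547383 and that of Kcnh7 is chr2:62710102-62710401.
Kcnip4: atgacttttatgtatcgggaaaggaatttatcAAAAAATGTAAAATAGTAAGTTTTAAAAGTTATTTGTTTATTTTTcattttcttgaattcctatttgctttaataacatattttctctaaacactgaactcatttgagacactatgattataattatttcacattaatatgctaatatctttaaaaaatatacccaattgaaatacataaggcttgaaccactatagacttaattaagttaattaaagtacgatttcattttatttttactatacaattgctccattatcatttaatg
Kcnh7: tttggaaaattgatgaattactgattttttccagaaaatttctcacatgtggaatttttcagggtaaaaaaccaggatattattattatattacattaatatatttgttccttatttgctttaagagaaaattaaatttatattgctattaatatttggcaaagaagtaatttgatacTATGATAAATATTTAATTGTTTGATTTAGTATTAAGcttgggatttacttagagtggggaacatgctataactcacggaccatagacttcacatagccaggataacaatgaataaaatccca

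These runs without C were 45 bp long in Kcnip4 and 36 bp in Kcnh7, and the 300 bases held 77.7% and 73.3% A or T. At the Kcnip4 BUR, 369 kb from the start of the gene, the brain fold enrichment over local background was 21.9 in list 1 and 17.9 in list 2, a mean of 19.9 ± 2.88 (SD, n = 2). At the Kcnh7 BUR, 312 kb from the start, the brain values were 19.5 and 19.1, a mean of 19.3 ± 0.316 (SD, n = 2). The Kcnip4 BUR was also overlapped in both thymocyte urea lists and the Kcnh7 BUR in thymocyte urea list 1 alone. Neither was overlapped in a skin or a standard list. Because high brain enrichment chose these BURs, the brain values describe them and are no test.

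The lists held from 10846 peaks in skin list 2 to 117963 in brain list 1, with 238380 BURs in the map. The files give no read depth per list, and the study describes the aligned reads of its urea samples as similar in number. The number of peaks of a list is not the number of sites in the tissue, so the BURs bound, the genes with a peak and the shares of peaks per gene are given below both with the lists as deposited and with SATB1 lists cut to the same size of 10846 peaks. Densities, positions within genes and the BURs bound in several tissues are given for the lists as deposited alone. Replicates shared 73.3% to 84.9% of their peaks in the urea groups, while standard list 1 shared 45.3% of its peaks with list 2. As a check of the labels, which the lists can only give through binding, 6 of 6 thymocyte marker genes had a standard SATB1 peak within 2 kb of a start site in both lists, against 1 of 5 neuron and 1 of 4 keratinocyte markers. No marker of any of these cell types had a urea SATB1 peak there in both lists of a group, so the urea lists could not be checked in this way.

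Channel windows carried BURs at close to the usual density and brain SATB1 peaks slightly above it. Standard SATB1 peaks were sparser in them than over all genes, though not at every gene length. The map held 1715 BURs in channel windows, or 79.9 per Mb against 72.7 in all protein-coding windows, a ratio of 1.10. For brain the density was 41.6 and 39.1 peaks per Mb in the 2 lists, and the ratio to all windows was 1.12 ± 0.0117 (SD, n = 2). The ratio in thymocyte urea lists was 1.03 ± 0.0154 and in skin 0.802 ± 0.00321 (SD, n = 2). In these 6 lists the brain values lay above 1, the thymocyte values just above 1 and the skin values below 1. In standard ChIP-seq the ratio was 0.610 ± 0.0598 (SD, n = 2), at 18.0 and 8.95 peaks per Mb. Against genes of the same length, the mean standard ratio was 0.934 under 10 kb, 1.09 at 10 to 30 kb and 0.637 at 30 to 100 kb. It was 0.373 at 100 to 300 kb and 0.961 at 300 kb or more. The single CTCF lists gave 0.895 in thymocytes and 0.912 in skin. The ratio was not tested, since the same stretches enter every list.

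Genes of neurotransmitter receptors, which also work in neurons, were set beside the channels. Over 88 such genes the BUR ratio was 1.48 and the brain ratio 1.53 ± 0.00351 (SD, n = 2), both further above 1 than in channel genes. Their standard SATB1 ratio was 0.310 ± 0.0160 (SD, n = 2), further below 1 than in channel genes. Channel genes thus lay between receptor genes and all genes in each SATB1 list and in the BUR map, except in skin, where the channel ratio of 0.802 was below 1 and the receptor ratio was 1.32 ± 0.0519 (SD, n = 2).

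**Figure D1:**
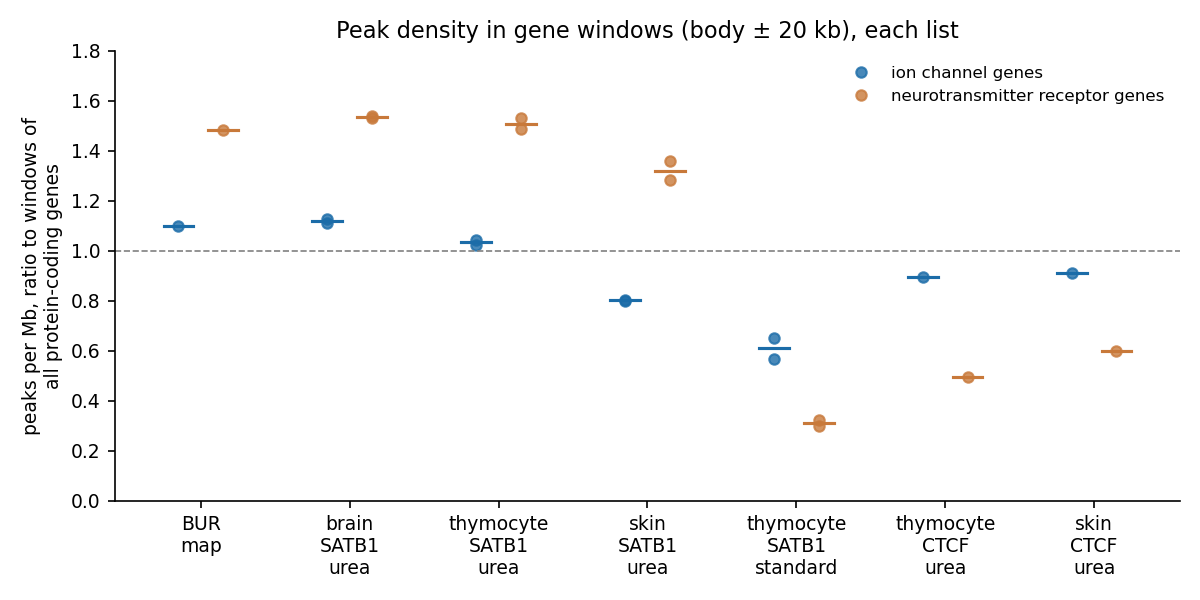
Peaks per Mb in gene windows divided by peaks per Mb in the windows of all protein-coding genes, for each peak list (points) with the mean of a group as a line; blue marks the 138 ion channel genes and orange the 88 neurotransmitter receptor genes. The dashed line at 1 is the density over all genes; channel genes lay at 1.12 in brain and 0.610 in standard ChIP-seq.

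Channel genes are long, with a median of 38.9 kb against 15.5 kb over all protein-coding genes, and their density depended on length. Among the 18 channel genes of 300 kb or more, the map held 110 BURs per Mb, 1.08 times the density over the 529 protein-coding genes of that length. Brain lists gave 59.7 ± 2.01 peaks per Mb there (SD, n = 2), a ratio of 1.07 ± 0.0158 to genes of the same length. At 100 to 300 kb, with 25 channel genes, the ratio was 1.21 for BURs and 1.03 ± 0.00927 for brain peaks (SD, n = 2). Long channel genes therefore had about the BUR and brain peak density of other genes as long.

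Channel genes of middle length were poorer in both than genes of the same length. At 30 to 100 kb, 35 channel genes held 31.0 BURs per Mb against 58.6 for all genes, a ratio of 0.528, and the brain ratio was 0.511 ± 0.00592 (SD, n = 2). At 10 to 30 kb, 34 channel genes had a BUR ratio of 0.545 and a brain ratio of 0.441 ± 0.00806 (SD, n = 2). The AT content of the windows moved with this, at 51.6% against 55.8% for 30 to 100 kb and 51.2% against 54.7% for 10 to 30 kb. In genes of 300 kb or more it was 59.2% in channel windows and 59.1% in all. Below 10 kb, 26 channel genes had a BUR ratio of 0.782 and a brain ratio of 0.883 ± 0.0182 (SD, n = 2), but on gene bodies alone these were 1.18 and 0.517. Across the 138 genes, Spearman's rho was 0.79 between the AT content of a window and its BURs per Mb, and 0.41 between gene length and BURs per Mb. Both are descriptions over genes that share 1 map, and genes are not replicates. The part of AT content in the density was not tested.

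**Figure D2:**
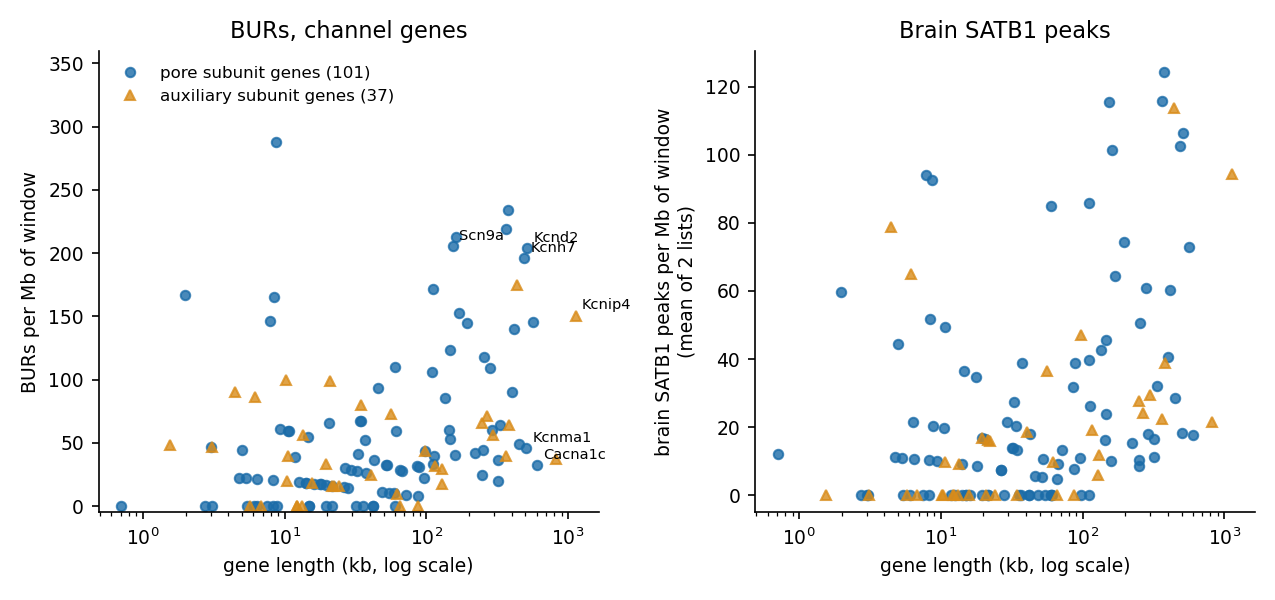
BURs per Mb of window (left) and the mean of the 2 brain lists in SATB1 peaks per Mb of window (right) against gene length on a log scale, 1 point per channel gene, with circles for 101 pore subunit genes and triangles for 37 auxiliary subunit genes. Most genes under 100 kb lie low on both axes, while genes above 300 kb spread widely, with Kcnd2 at 204 BURs per Mb and Cacna1c at 32.6.

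The peaks were held by few genes. The 10 channel genes with most BURs held 52.1% of all BURs summed over genes, and the 10 with most brain peaks held 56.8% of the peaks of brain list 1. In brain list 1 the median channel gene had 1 peak and 49 genes had none. In standard list 1 the 10 leading genes held 29.3% of the peaks. The urea values above therefore rest largely on a few long genes.

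Sodium channel pore genes were unevenly covered. The 10 Scn pore genes together held 105 BURs per Mb. Scn1a, Scn9a and Scn7a lie next to each other on chromosome 2 (chr2:66088838-66642971 with flanks), and Scn2a1 and Scn3a lie on the same chromosome. The stretch of Scn1a, Scn9a and Scn7a held 98 BURs and had 50 and 48 brain peaks, 16 and 16 thymocyte urea peaks, 2 and 1 skin peaks and 1 and 2 standard peaks. Scn9a, a sodium channel of sensory neurons, had the most BURs of the subfamily, 40, with 23 and 22 brain peaks, 11 and 8 thymocyte urea peaks and none in any skin, standard or CTCF list. Scn1a, a pore subunit prominent in inhibitory neurons, had 32 BURs, and its peak numbers were 13 and 14 in brain, 4 and 6 in thymocytes, and 2 and 1 in skin. Both brain lists were above both thymocyte lists for these genes, and both thymocyte lists above both skin lists, an order that the sizes of the lists also have.

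Other sodium channel genes had fewer peaks. Scn2a1 had 23 BURs, 123.3 per Mb, with 9 and 8 brain and 4 and 2 thymocyte urea peaks, and Scn3a had 16 BURs, 106 per Mb, with 7 and 5 brain and 1 and 1 thymocyte urea peaks. Scn8a, a pore of the axon initial segment in adult neurons, had 6 BURs, 39.3 per Mb, and 4 urea peaks in each of the 4 brain and thymocyte lists. The 4 Scn beta genes had 3 BURs in all, 1 and 1 brain peaks and 10 and 8 standard peaks. Scn2b, one of them, had no BUR and no urea SATB1 peak and 7 and 5 standard peaks.

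The 10 Cacna1 pore genes of calcium channels held 40.7 BURs per Mb, the lowest density of the pore subfamilies. Cacna1c, which carries the L-type current of heart and brain, spans 604 kb (chr6:118542314-119146249) and had 21 BURs, with 12 and 11 brain peaks, 5 and 3 thymocyte urea peaks and 5 and 3 standard peaks. Cacna1d, another L-type pore, led the subfamily with 24 BURs and had 16 and 12 brain peaks and 24 and 14 standard peaks. Cacna1a, the presynaptic calcium channel of most central synapses, had 13 BURs, 3 and 3 brain peaks and 10 and 4 standard peaks. Their windows were 51.2% AT for Cacna1a and 53.8% for Cacna1c, against 62.1% for Scn9a.

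The 4 Hcn genes, which encode pacemaker channels, together had the highest BUR density of any subfamily, 167 per Mb. Their windows held 55 and 55 brain peaks, 90.9 per Mb in each list, and 8 and 7 standard peaks.

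Among potassium channels, Kcnd2, Kcnh7, Kcnt2, Kcnj3 and Kcnq5 led their subfamilies. Kcnd2, the A-type channel of dendrites (chr6:21165503-21679805), had 113 BURs, with 61 and 57 brain, 21 and 14 thymocyte urea, 4 and 4 skin and 1 and 1 standard peaks. Kcnh7, of the ether-a-go-go related family (chr2:62531471-63022344), had 104 BURs with 55 and 54 brain, 21 and 15 thymocyte urea and 2 and 2 skin peaks, and no standard or CTCF peak. Kcnt2, a sodium-activated channel, had 89 BURs and 50 and 44 brain peaks. Kcnq5, an M-current subunit, had 88 BURs and 45 and 43 brain peaks, and unlike the others it also had 16 and 5 standard peaks. Kcnj3, a G-protein-gated inward rectifier, had 43 BURs and 21 and 20 brain peaks. Of the genes with bodies of at least 30 kb, Kcnt2, Kcnj3, Scn9a and Kcnd2 were among the 5 of highest BUR density, from 204 to 219 per Mb.

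Other potassium channel genes had fewer BURs. Kcnma1, the large-conductance calcium-activated channel, spans 505 kb and had 25 BURs, 45.9 per Mb, with 10 and 10 brain peaks. Among genes of at least 100 kb the lowest densities were those of Cacna2d2 with 17.7, Kcnh1 with 19.5 and Kcnj6 with 24.3 BURs per Mb. Kcnq3, a subunit of the neuronal M-current, had 20 BURs and 6 and 6 brain peaks. Kcnk2, a background potassium channel, led the Kcnk genes with 15 BURs, 85.3 per Mb, and 8 and 7 brain peaks. Kcnh2, the channel of cardiac repolarization, had no BUR, 1 and 1 brain peaks and 8 and 4 standard peaks.

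The lymphocyte channels differed from each other. Kcna3 (chr3:106839080-106841047), a gene of 1.97 kb, had 7 BURs in its window, with 2 and 3 brain peaks, no urea peak in thymocytes or skin, and 3 and 1 standard peaks. Kcnn4 (chr7:25155282-25170228) had no BUR, 1 and 0 thymocyte urea peaks and 9 and 5 standard peaks. Both genes had a standard SATB1 peak within 2 kb of a start site in both lists.

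**Figure D3:**
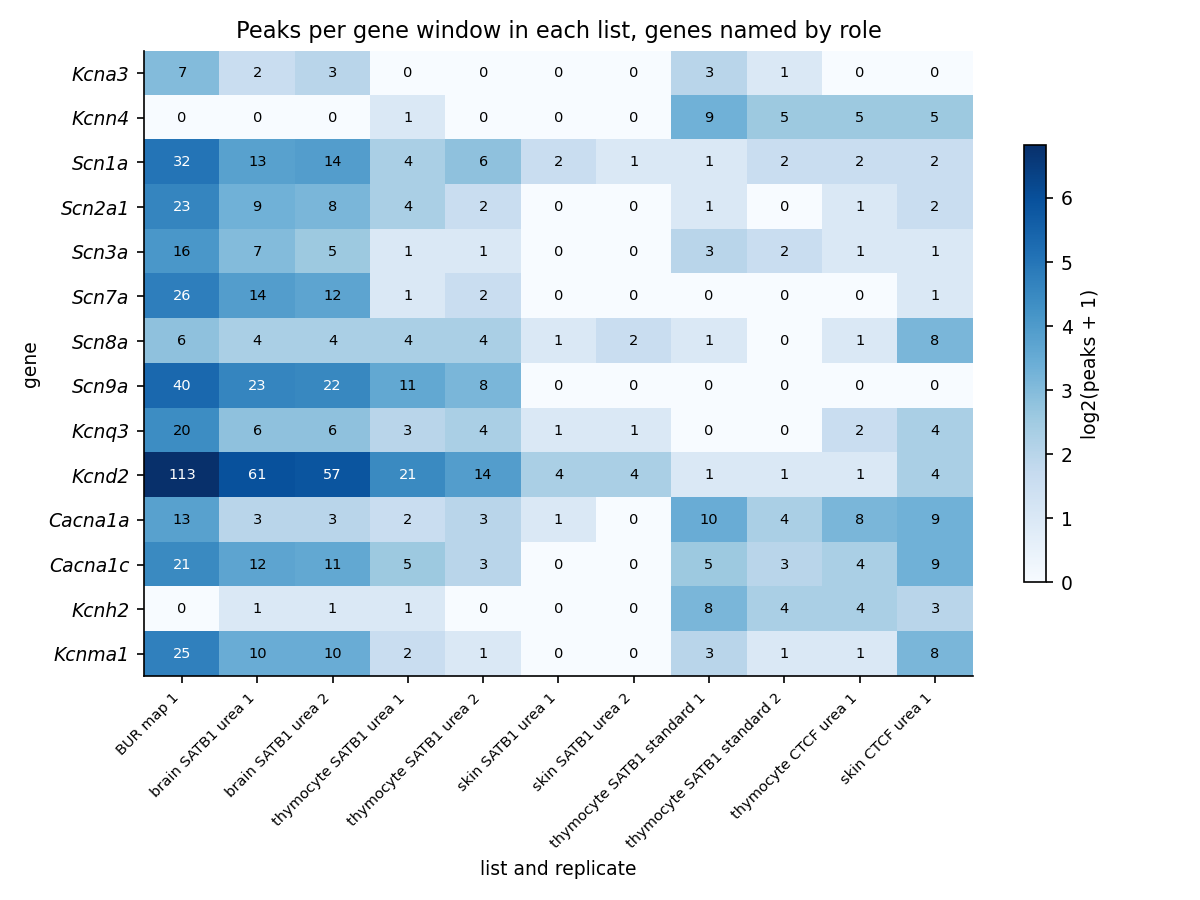
Number of peaks in the window of each of 14 channel genes (rows) in each of the 11 lists (columns), with the count in each cell and colour by log2(peaks + 1). Kcnd2 had 61 and 57 peaks in the brain lists and 1 and 1 in the standard lists, while Kcnn4 and Kcnh2 had 0 or 1 in urea lists and 4 to 9 in standard lists.

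Auxiliary subunit genes held 72.4 BURs per Mb against 83.1 for pore genes, and their brain density was 42.8 and 40.4 peaks per Mb against 41.1 and 38.5. Most of this came from a few long genes. Kcnip4, a calcium-sensing partner of A-type channels, is the longest channel gene at 1135 kb (chr5:48780743-49915940) and led all channel genes in BURs, with 177. Its brain peak numbers were 114 and 108, those of thymocyte urea 33 and 27, of skin 3 and 4 and of standard 1 and 1. Cacna2d1, a largely extracellular calcium channel subunit that binds gabapentin, had 84 BURs, 57 and 52 brain peaks, 22 and 20 thymocyte urea peaks and 2 and 3 standard peaks. Cacnb2, an intracellular beta subunit, had 27 BURs and 17 and 16 brain peaks. Cacng3, which accompanies AMPA receptors, had only 6 BURs, the most of the Cacng genes together with Cacng7 and Cacng8. Its brain lists held 6 and 7 peaks. The merged stretch of Cacng6, Cacng7 and Cacng8 held no peak in any SATB1 list.

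**Figure D4:**
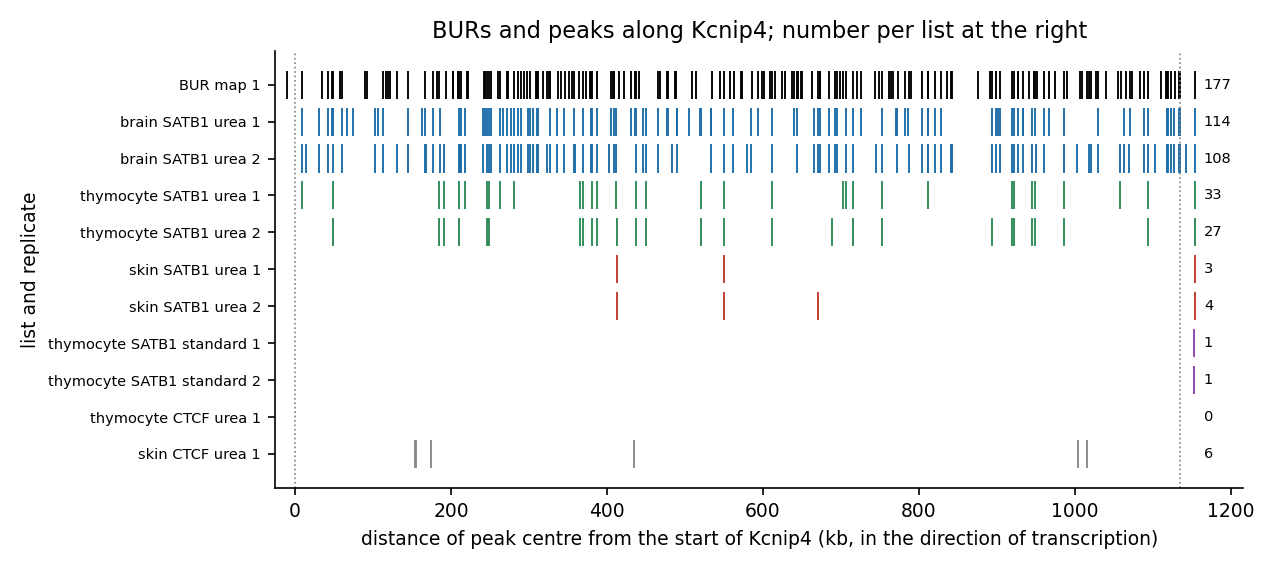
Centres of BURs and peaks along Kcnip4 by distance in kb from the start of the gene, 1 row per list, with the number per list at the right and dotted lines at both ends of the gene. BURs and brain peaks lie along the whole body, while the only standard peak of each list lies in the flank past the end of the gene.

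Within channel windows, urea peaks lay mostly in introns. Introns held 81.5% of BURs, 84.4% of brain peaks, 81.1% of thymocyte urea peaks and 75.0% of skin peaks, against 35.9% of standard SATB1 peaks. Per Mb of intron this was 90.8 BURs, 47.3 brain peaks and 7.02 standard peaks. Exons and the upstream and downstream flanks held more standard peaks per Mb, 37.6, 28.4 and 30.3. Over all genes, introns likewise held 62.3% of brain and 26.6% of standard peaks, so the same contrast between the assays was seen over all genes.

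Few channel genes had SATB1 near a start site. A standard peak lay within 2 kb of a start site in both lists for 20 of 138 channel genes, or 14.5%, against 40.3% of all protein-coding genes. Those 20 included Hcn3, Kcnab2, Kcna2, Kcna3, Kcnh2, Kcnn4, Scn2b and Scn4b. For urea brain lists the number was 4 genes, 2.90% against 7.71% of all genes, namely Cacna1d, Kcnd2, Kcnj2 and Scn4a. For thymocyte urea lists it was Scn4a alone, 0.725% against 3.32%, and for skin it was 0 of 138, against 1.10%. A BUR lay that close to a start site in 17 channel genes, 12.3% against 18.3%, and a CTCF peak in 14 in thymocytes, 10.1% against 14.1%, and in 28 in skin, 20.3% against 17.3%.

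How much of the BURs in channel windows SATB1 occupied differed between tissues. Of 1714 BURs centred in channel windows, 634 and 604 were overlapped by a peak in the brain lists, 232 and 205 in the thymocyte urea lists and 50 and 49 in the skin lists. As shares of the BURs these were 37.0% and 35.2%, 13.5% and 12.0%, and 2.92% and 2.86%. The group means were 36.1 ± 1.24%, 12.7 ± 1.11% and 2.89 ± 0.0413% (SD, n = 2), and no list of one tissue reached a list of another. The order brain, thymocytes, skin had a p of 0.0222 in a two-sided exact permutation test of the Jonckheere-Terpstra statistic, the smallest that 90 arrangements can give. The study reports this order for BURs over the whole genome, and the sizes of the lists have it too. Over all protein-coding windows the mean shares were 34.2%, 13.7% and 4.00%. The order was thus known beforehand, and this p describes channel windows without setting them apart from other genes. In the same windows, 10 and 7 BURs were overlapped in the standard lists, or 0.583% and 0.408%.

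Divided by the share over all protein-coding windows of the same list, the values were 1.04 and 1.07 in brain, 0.940 and 0.922 in thymocytes and 0.723 and 0.723 in skin. The groups again did not overlap, with the same exact permutation p of 0.0222. This order was not tested by length and did not hold at every length. At 30 to 100 kb, brain lists bound 24.0% and 23.1% of channel BURs, against 32.6% and 29.9% over all genes. Skin lists there bound 6.73% and 4.81%, against 4.11% and 3.95%. Under 10 kb, thymocyte lists led, with 18.6% and 15.3% against 12.6% and 11.7%. At 100 to 300 kb, brain and thymocyte relative values overlapped. The order held at 10 to 30 kb and at 300 kb or more, where 1045 BURs lay. When every list was cut to 10846 peaks, the mean shares were 3.88% in brain, 3.47% in thymocytes and 2.77% in skin. The relative values were then 0.847 and 0.928 in brain, 0.798 and 0.751 in thymocytes and 0.683 and 0.723 in skin. The ratio thus moved with the size of the list, and the brain values were above 1 as deposited and below 1 at equal size, and the order of tissues was the same (exact permutation p = 0.0222 for both measures). In the lists as deposited, 8.07% and 8.71% of the brain peaks in channel windows and 4.48% and 4.62% of the skin peaks were among the strongest 10% of their list.

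**Figure D5:**
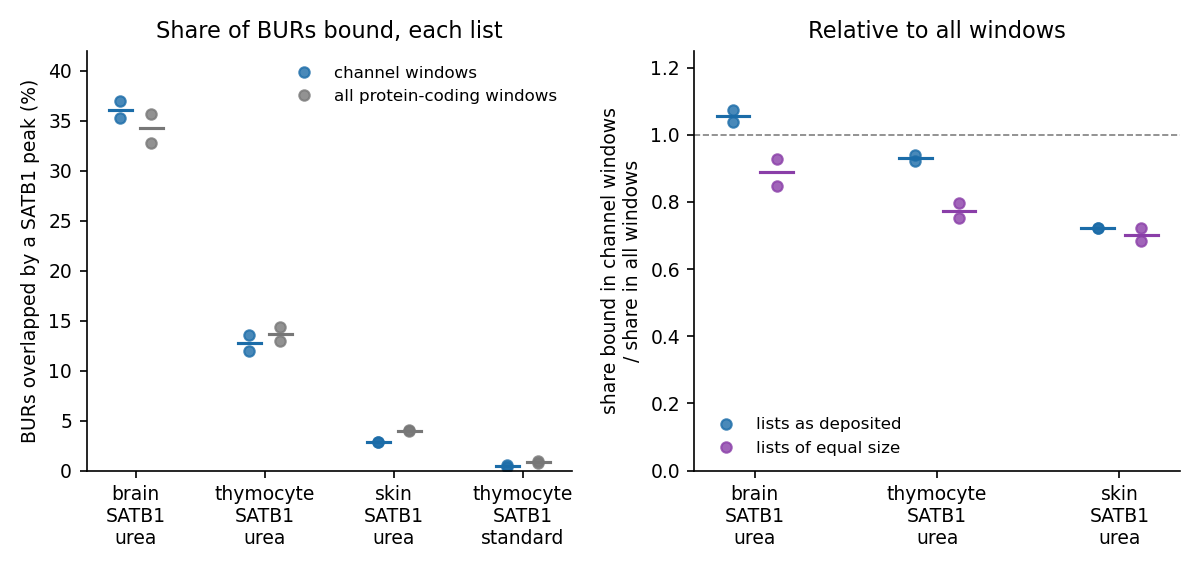
Left, percent of BURs overlapped by a SATB1 peak in each list (points; line, mean of 2) in channel windows and in all protein-coding windows; right, the ratio of these shares for urea lists as deposited and cut to 10846 peaks. Brain lists lie near 36%, thymocyte lists near 13% and skin lists near 3% in channel windows, and the ratio falls from brain to skin in both settings.

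The BURs bound were largely nested. A BUR counts here as bound in a tissue only if both its urea lists overlap it, so overlap in 1 list of a tissue is not counted. The Kcnh7 BUR shown above thus counts as brain alone. On this count, 371 channel BURs (21.6%) were bound in brain alone, 139 (8.11%) in brain and thymocytes but not skin, and 37 (2.16%) in all 3 tissues. Bound in thymocytes alone was 1 BUR and in skin alone were 3, and 1019 BURs (59.5%) were overlapped in no urea list. Over all protein-coding windows the shares were 18.9% for brain alone, 7.94% for brain and thymocytes and 3.10% for all 3. BURs bound in all 3 tissues had a median fold enrichment of 10.9 in the BUR map, those bound in brain and thymocytes 7.86, in brain alone 6.06 and in no urea list 5.60. Over all protein-coding windows these medians were 10.8, 8.37, 6.59 and 5.57, so the same order was seen over all genes. The median AT content was 70.3% for BURs bound in both brain lists and 70.2% for the others.

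The 37 BURs bound in every urea SATB1 list lay in 26 channel genes. Kcnq5 had 4 and Kcnc2, a fast-spiking neuron channel, had 3, and 6 further genes had 2 each, among them Kcnab1, Kcnb2, Kcnd2, Kcnh7 and Kcnip4. Of the 113 channel genes with a BUR, 66 had one bound in both brain lists and 51 had one bound in both brain and both thymocyte lists. None of the 1714 BURs was overlapped by a thymocyte CTCF peak, which allows a share of up to 0.175%, against 374 BURs or 0.367% over all windows. Of the skin CTCF peaks 2.38% lay on a BUR, and of the brain SATB1 peaks 70.9% and 71.7%. Over all protein-coding windows these were 3.23%, and 69.2% and 68.9%.

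Counted by gene, the presence of a peak in a window differed little from other genes in brain. A peak in both brain lists was found in 80 channel genes, 58.0% against 58.3% of all protein-coding genes. For thymocyte urea lists it was 70 genes, 50.7% against 40.4%, and for skin 37 genes, 26.8% against 18.3%. For standard ChIP-seq it was 68 genes, 49.3% against 64.0%. A CTCF peak lay in 100 windows in thymocytes, 72.5% against 61.7%, and in 114 in skin, 82.6% against 72.2%. A BUR lay in 113 windows, 81.9% against 86.6%.

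Length moved with these counts too. Of the 18 channel genes of 300 kb or more, all had a peak in both lists of brain and of thymocyte urea, where 99.2% and 98.3% of all genes of that length did. Of the 34 channel genes of 10 to 30 kb, 10 had a peak in both brain lists, 29.4% against 49.0%. In lists of equal size the number of channel genes with a peak in both lists was 28 for brain, 36 for thymocyte urea and 36 for skin. As percentages of the genes these were 20.3%, 26.1% and 26.1%, against 13.7%, 16.9% and 18.1% of all genes. The larger number of brain-bound channel genes in the lists as deposited was thus not seen among the strongest 10846 peaks.

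The share of a list's peaks that fell in a gene's window was compared between tissues with limma over all genes with at least 5 peaks summed over the 8 SATB1 lists. The filter was passed by 98 of the 138 channel genes and 16933 genes in all, and the 2 comparisons of tissues share the thymocyte urea lists. In brain against thymocytes the share was higher for 5 channel genes and lower for 3 (Benjamini-Hochberg adjusted p under 0.05), or 5.10% and 3.06%. Over all genes tested 8.65% were higher and 7.31% lower, 16.0% in all, so calls were no more frequent among channel genes. The median log2 difference was 0 over channel genes and 0 over all genes. Of the 98 channel genes, 12 had no peak in one of the 2 groups and 15 had none in either. None of these genes allowed a bound, so the median could not be checked with bounds. With 2 lists in a group and few peaks, 6 of the 8 genes had at most 3 peaks in every list compared. In simulated brain and thymocyte lists over 16933 genes, 17 of 200 genes changed 4-fold were called, or 8.5%. A gene that was not called may therefore still differ. The simulated calls also held 31 unchanged genes, 0.205% of those unchanged and more than the 17 changed ones. A gene that was called may therefore not differ.

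The genes called higher in brain were Scn7a, Scn3a, Cacna2d4, Kcna3 and Kcnj15. Scn7a, a sodium-sensing channel homologue, had 14 and 12 brain and 1 and 2 thymocyte urea peaks, so that the lists did not overlap. Its log2 difference in share was 1.49 ± 0.31 (SE, limma adjusted p = 0.0316), and the ratio of the summed shares was 3.20 (95% exact interval for counting error 0.982 to 16.5). Scn3a had 7 and 5 against 1 and 1 peaks (log2 difference 0.88 ± 0.17, limma adjusted p = 0.0264), and its ratio of summed shares was 2.22 (0.494 to 20.4). Both intervals include 1. Cacna2d4 had 3 and 3, Kcna3 2 and 3, and Kcnj15, an inward rectifier, 1 and 2 brain peaks, while all 3 genes had none in thymocytes, which is too few for a fold (limma adjusted p = 0.00778 for Cacna2d4 and 0.0204 for Kcnj15). With 0 in both thymocyte lists, these p-values depend on the prior count and leave out counting error. Kcna3 passed the filter of 5 peaks only through its brain peaks, so its call is no test. The genes called lower, Kcnj13, Cacnb1 and Kcnk4, had 3 and 2, 1 and 1, and 1 and 1 brain peaks against 2 and 2, 1 and 1, and 1 and 1 in thymocytes, so their shares were lower in the larger brain lists without fewer peaks. With unscaled peak numbers 27 channel genes were higher in brain and 0 lower, Kcnj13 turned to a log2 difference of 0.24, and the median over all genes moved from 0 to 0.74. With lists of equal size 36 channel genes could be tested, of which 3 were higher and 4 lower, and none of the 8 genes named here was among them. With 1 list left out, the fit called 4 genes without brain list 1, 2 without brain list 2, 10 without thymocyte urea list 1, 4 without thymocyte urea list 2, 5 without either skin list, 17 without standard list 1 and 19 without standard list 2. Of the 8 genes, 2, 1, 4, 2, 3 and 3, 8 and 7 were among those called, in the same order.

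In skin against thymocytes the share of peaks was higher for 9 and lower for 26 of the 98 genes, or 9.18% and 26.5%, against 12.0% and 23.3% of all genes tested. Together 35.3% of all genes tested were called, and the percentages of channel genes lay near those of all genes. Lower in skin with the largest differences were Scn9a, Cacnb2, Cacna1c and Scn2a1. Skin lists held no peak of these 4 genes, whereas thymocyte urea lists held 11 and 8, 5 and 4, 5 and 3, and 4 and 2 (limma adjusted p = 0.000151, 0.000151, 0.000204 and 0.00915). For Scn9a the share in skin was at least 1.66-fold lower, taking 3 peaks over the 2 skin lists as the limit, and the other 3 genes allow no fold. Kcnip4 had 3 and 4 skin peaks against 33 and 27 (log2 difference -1.16 ± 0.25, limma adjusted p = 0.0153) and Kcnh7 2 and 2 against 21 and 15 (-1.18 ± 0.14, limma adjusted p = 0.00179). The ratio of summed shares was 0.444 for Kcnip4 (95% exact interval for counting error 0.171 to 0.972). For Kcnh7 it was 0.423 (0.109 to 1.18), an interval that includes 1.

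The genes called higher in skin with the largest differences were Scn11a, Kcnh1, Kcnj10 and Kcnmb3. Their skin lists held 1 and 1, 2 and 1, 1 and 1, and 1 and 1 peaks against 1 and 0, 1 and 1, 1 and 1, and 1 and 1 in thymocytes, so the shares were higher in the smaller skin lists on 1 or 2 peaks each. Of the 35 genes called, 25 had at most 3 peaks in every list compared. Unscaled, no channel gene was higher and 35 were lower, and the median over all genes was -0.74. With lists of equal size 36 channel genes could be tested and 2 were called, both lower in skin. Without thymocyte urea list 1 there were 23 calls, 5 higher and 18 lower.

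Urea and standard ChIP-seq of thymocytes differed for most channel genes, in both directions. The share in urea lists was higher for 28 and lower for 43 of 98 genes, or 28.6% and 43.9%, against 15.6% and 55.1% of all genes tested, 70.7% in all. The median log2 difference was -0.47 over channel genes and -1.47 over all genes, and -0.33 and -0.89 with genes at 0 in one group at their bound. With lists of equal size 17 of 36 were higher and 7 lower, on gene bodies alone 24 of 62 were higher and 20 lower, and with at least 20 peaks 23 of 35 were higher and 4 lower.

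The genes described first were higher in urea lists, and they span 155 to 1135 kb and hold 19 to 177 BURs. Kcnh7 had 21 and 15 urea peaks and none in standard lists, a share at least 10.8-fold higher (limma adjusted p = 2.40e-06). Scn9a had 11 and 8 against none, at least 5.68-fold higher (limma adjusted p = 3.43e-06), and Kcnmb2, a modulator of Kcnma1, had 9 and 7 against none, at least 4.79-fold higher (limma adjusted p = 0.0125). Kcnt2 had 16 and 16 against 1 and 0, a ratio of shares of 28.7 (95% exact interval for counting error 4.80 to 1169). Kcnip4 had 33 and 27 against 1 and 1, a ratio of 26.9 (7.14 to 227), and Kcnd2 21 and 14 against 1 and 1, a ratio of 15.7 (4.03 to 135). For Cacna2d1 the ratio was 7.54 (2.99 to 24.4).

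The genes lower in urea lists described next span 12.2 to 32.0 kb and hold no BUR, except Kcnh3 with 1. Scn2b, Cacnb3, Kcnh3 and Kcnn1 had no thymocyte urea peak, and their standard lists held 7 and 5, 7 and 4, 7 and 4, and 5 and 5 peaks. Their shares were at least 4.46-fold, 4.09-fold, 4.09-fold and 3.71-fold lower. These genes, like Kcnn4 and Kcnh2 below, passed the filter of 5 peaks only through the standard lists, where they are high. A limma p-value is therefore no test for them and is not given. Kcnn4 had 1 and 0 against 9 and 5, with a ratio of standard to urea shares of 15.6 (95% exact interval 2.37 to 660), and Kcnh2 1 and 0 against 8 and 4, a ratio of 13.4 (1.98 to 572). Without standard list 1, 35 of 78 genes tested were higher in urea lists and 22 lower, and the median was 0.85, while without list 2, 28 of 92 were higher and 35 lower, and the median was -0.43.

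Genes that place, accompany or modulate these channels were counted in the same fits. Of 36 such symbols 35 were annotated and 32 passed the filter. In brain against thymocytes 2 were higher and 0 lower, 6.25% of the 32 higher against 8.65% of all genes. In skin against thymocytes 1 was higher and 5 lower, 3.13% and 15.6% against 12.0% and 23.3% of all genes. The lower genes included Cntnap2, an adhesion protein of the axon, and Unc80, of the sodium leak channel complex. Against standard ChIP-seq 17 were higher in urea lists and 8 lower, with Dpp6, Fgf12 and Ank2 among the higher and Calm3, Dlg4 and Cntnap1 among the lower. The percentages were 53.1% higher and 25.0% lower, against 15.6% and 55.1% of all genes. The list was chosen for ties to channels, and no test of it against other genes was made.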

How the data were processed

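The authors aligned ChIP-seq reads to mm9 (Bowtie2 2.3.1), keeping unique matches, and ran the peak caller MACS2 2.2.7 on every sample with a cut on q, per the submitters' notes and the methods. The deposited lists give each peak a score, a fold enrichment over local background and −log10 p and q values, made by the authors' peak caller. Read counts, inputs, knockout lists, Hi-C and 4C-seq were not used here.

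Peaks overlapping a gene body extended by 20 kb by at least 1 bp were counted (Python 3.11.15, numpy 2.4.6). BURs were assigned by centre and called bound on 1 bp of overlap. In lists of equal size, each SATB1 list kept its strongest 10846 peaks. Values were log2 of peaks per gene as a share of the list, per 100000 peaks with a prior count of 0.5, for 8 SATB1 lists in 4 groups, and were tested with limma 3.58.1 in R 4.3.3 with Benjamini-Hochberg adjustment over 16933 genes with at least 5 peaks. A fold against a group at 0 was set against 3 peaks over the group. Intervals are exact and cover counting error only. The steps were tested on simulated data. Order over tissues was tested by exact permutation (scipy 1.17.1), and sequences were read with pysam 0.24.0.

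The members and gene lists were chosen with earlier results of these data known. Named genes were those fixed by role (lymphocyte, neuronal and cardiac channels and Kcnma1), the 5 with most BURs and with most brain peaks, the 5 of at least 30 kb with the highest and the 3 of at least 100 kb with the lowest BUR density, the member with most BURs in each subfamily, and up to 4 called genes in each direction of each comparison whose lists did not overlap, by log2 difference. Genes named for a start-site peak, for BURs bound in every urea list or as partners of channels were chosen after their values were seen. Some genes and sequences that the rule names are not reported here.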

Additional observations from a re-analysis of the deposited data

How the results depend on the processing

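The order of brain, thymocytes and skin had an exact permutation p of 0.0222 for both measures at −log10 q of at least 5, with summits inside BURs, on gene bodies and in lists of equal size. For the share of BURs in lists as deposited, the order was known from the study beforehand. With the replicate number as a replicate block it was 0.0556, and without any 1 list 0.0667, each the smallest p possible there, and the order of the means was the same. Within classes of gene length, the order of the relative values was not always the same. Same-numbered lists shared only a number, with correlations of their deviations between -0.0188 and 0.00888. Channel genes called in brain against thymocytes numbered 8, but 27 unscaled, 7 in lists of equal size with none shared with the 8, 14 without a filter, 2 with a prior count of 2, 5 with the replicate block and 2 to 19 with 1 list left out. In skin against thymocytes they numbered 35, but 2 in lists of equal size, 22 on gene bodies and 23 to 42 with 1 list left out, and 28 with the replicate block. In urea against standard ChIP-seq they numbered 71, but 24 in lists of equal size and 44 on gene bodies, where fewer genes were tested, and 57 to 76 with 1 list left out. Requiring 20 peaks, an alternative chosen after seeing the data like the fit to urea lists alone, left 2, 14 and 27 calls among 35 genes tested, and urea lists alone gave 9 and 42 of 66. Kcnj13 turned to a log2 difference of 0.24 unscaled. Of 23 leading gene and comparison pairs, 9 were called in every alternative fitted and 14 lost the call in at least 1.

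On gene bodies the density ratios were 1.18 for BURs, 1.17 for brain, 1.06 for thymocyte urea, 0.786 for skin, 0.368 for standard, 0.657 for thymocyte CTCF and 0.706 for skin CTCF lists, and 0.794 for skin at −log10 q of at least 5. By length, gene bodies gave BUR ratios of 1.18 under 10 kb and 0.388 at 30 to 100 kb, and brain ratios of 0.517 under 10 kb, 0.375 at 10 to 30 kb and 0.488 at 30 to 100 kb. Brain ratios at −log10 q of at least 5 were 0.857 under 10 kb and 0.431 at 10 to 30 kb. Genes with a peak in every list numbered 28 in brain, 36 in thymocyte urea and 31 in standard lists of equal size. On gene bodies they numbered 41 for standard and 59 for thymocyte CTCF lists, and with 1 standard list left out 69 to 104. The cause was not tested. The files give no read depth, and few peaks per gene limit the comparisons by gene.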
